A study of Homo sapiens with 24 samples.

Results

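The comparison described here is that of A549 cells after 11 hours of dexamethasone (dex) with A549 cells after 11 hours of the vehicle ethanol (EtOH), across all genes of the count table. It rests on 4 of the 24 RNA-seq libraries of the series, chosen by their treatment and time labels: 2 replicates exposed to 100 nM dex in EtOH and 2 replicates exposed to the same volume of EtOH alone (0.02% of the medium). A549 is an established line from a human lung adenocarcinoma, so each library is poly-A RNA of 1 cultured line, and no other cell type was sorted in or out. The labels call the replicates biological, but nothing in them names separate cultures or days, so the tests measure the spread between these libraries, which may in part be technical. The free-text protocol speaks of 1 hour for every library, whereas the duration field of these 4 reads 11 hours, and the field was used. The methods of the study state triplicates, while the labels give 2 replicates per group.

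Dex is a synthetic glucocorticoid. Glucocorticoids cross the cell membrane and bind the glucocorticoid receptor (GR), which leaves its chaperones, enters the nucleus and binds DNA as a dimer at palindromic elements, where it raises transcription, or acts through other factors such as NF-kappaB and AP-1, whose targets it can lower. In airway epithelium glucocorticoids are known for inhibiting inflammatory cytokines, for inducing feedback inhibitors and metabolic genes, and for raising sodium transport. After many hours of exposure, RNA levels reflect direct targets of GR together with the products and losses of genes that changed earlier.

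The element that GR binds is an imperfect palindrome of 2 short arms, and its core was searched as the letters GNACANNNTGTNC in the RefSeq promoters (GRCh38.p14), each from 250 bases before to 50 bases after a gene's start. These letters are their own reverse complement, so 1 search covers both strands. Of 27305 promoters, 106 (0.388%) held a match. Of the 10683 tested genes with a promoter in the table, 19 (0.178%) held one, against 3 of 645 genes called higher with dex (0.465%) and 1 of 414 called lower (0.242%). None of the 23 promoters of known glucocorticoid targets and none of the 7 available among the 12 genes highest with dex held these letters, which says only that they are not in these windows. For comparison, TGANTCA, the letters of the AP-1 element and again their own reverse complement, were found in 7.76% of all promoters, 4.78% of those of tested genes, 6.51% of those called higher and 8.21% of those called lower. The 4 promoters of called genes with a match are printed because they show where such a palindrome lies beside a gene that differed between dex and EtOH. They were chosen for the match, after the values were seen. Each runs 5′ to 3′ on the strand of its gene, with the 13 matching bases in capitals.
CHST7: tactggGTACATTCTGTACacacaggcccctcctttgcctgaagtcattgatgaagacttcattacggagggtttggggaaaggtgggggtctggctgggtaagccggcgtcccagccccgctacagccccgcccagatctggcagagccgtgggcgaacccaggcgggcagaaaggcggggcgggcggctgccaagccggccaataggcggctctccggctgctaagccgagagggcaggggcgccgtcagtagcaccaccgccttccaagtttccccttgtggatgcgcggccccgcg
MAP3K6: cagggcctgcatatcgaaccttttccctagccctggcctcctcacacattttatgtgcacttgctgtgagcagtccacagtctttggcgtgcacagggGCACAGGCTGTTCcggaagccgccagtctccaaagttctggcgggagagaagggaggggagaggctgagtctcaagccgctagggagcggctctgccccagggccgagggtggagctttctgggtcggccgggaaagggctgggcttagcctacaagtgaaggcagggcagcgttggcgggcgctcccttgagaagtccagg
EEF2K: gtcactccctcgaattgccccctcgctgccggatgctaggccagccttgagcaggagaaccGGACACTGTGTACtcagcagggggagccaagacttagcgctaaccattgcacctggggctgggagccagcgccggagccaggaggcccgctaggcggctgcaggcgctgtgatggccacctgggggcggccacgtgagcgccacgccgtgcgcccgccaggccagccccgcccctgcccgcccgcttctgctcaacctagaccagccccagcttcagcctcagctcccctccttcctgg
EVA1A: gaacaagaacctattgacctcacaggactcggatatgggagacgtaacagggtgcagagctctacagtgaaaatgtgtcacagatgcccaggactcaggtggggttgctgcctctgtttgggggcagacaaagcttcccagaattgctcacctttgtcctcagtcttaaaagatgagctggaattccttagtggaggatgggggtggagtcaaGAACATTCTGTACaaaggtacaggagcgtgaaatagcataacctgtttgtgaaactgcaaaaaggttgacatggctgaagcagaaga

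The *CHST7* window, chrX:46573515-46573814 on the plus strand, has its match starting 244 bases before the start of this carbohydrate sulfotransferase gene, which had 40.4 and 43.1 CPM (read counts as a share of the library total, scaled by the TMM method) in the dex libraries and 11.9 and 9.30 in the EtOH libraries. Both dex values lay above both EtOH values, with a log2 fold change of 1.98 (standard error 0.19, edgeR quasi-likelihood test, Benjamini-Hochberg (BH) adjusted p = 1.60e-05). *MAP3K6*, a kinase of the stress MAP kinase cascade, has its match 152 bases before the start in chr1:27366912-27367211 on the minus strand, and had 25.6 and 20.8 CPM with dex against 9.56 and 10.1 with EtOH (log2 fold change 1.24). In *EEF2K*, whose product phosphorylates translation elongation factor 2, the match lies 189 bases before the start (chr16:22206028-22206327, plus strand), and the values were 66.2 and 77.7 CPM with dex and 51.2 and 53 with EtOH. That difference, 0.47 on the log2 scale, had a BH-adjusted p of 0.0932 by edgeR, just inside the threshold of 0.1. The remaining gene, *EVA1A*, a regulator of autophagy, has the match 37 bases before its start in chr2:75569670-75569969 on the minus strand and was lower with dex, at 5.52 and 4.96 CPM against 12.7 and 12.3 (log2 fold change -1.25).

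The 11 hour libraries held 11592889 and 11223795 counts with dex and 7813353 and 8946452 with EtOH, so both dex libraries were deeper than both EtOH libraries. Counts of the transcripts of a gene were summed, and 19897 features (genes, and transcripts that could not be joined to one) had enough counts to be tested. A feature is called when its BH-adjusted p in the quasi-likelihood test of edgeR is at most 0.1. Among all features, 1727 were called (8.68% of those tested): 1072 higher with dex (5.39%) and 655 lower (3.29%). The same test found 164, 2559, 4585, 5134 and 3598 features at 1, 3, 5, 7 and 9 hours. With one of the libraries at 11 hours left out in turn, no called feature changed sign. Where a treatment keeps 1 library, the spread between replicates is estimated from the other treatment alone. That estimate was 12.7% with all 4 libraries, 6.53% without either dex library and 16.4% without either EtOH library. Numbers called in such fits, given for the lists below, depend on it. Of the features called at 11 hours, 852 differed by at least 2-fold, 586 of them higher and 266 lower, and the median size of the called changes was 0.99 on the log2 scale. For 45.1% of the features tested, the 2 libraries of one treatment both lay beyond the 2 of the other (4526 higher and 4455 lower with dex). A lack of overlap is thus common and by itself says little about a gene. The 12 markers of A549 and other epithelial cells in the table all had enough counts to be tested. Of 10 markers of alveolar type II cells, 2 had, among them *ABCA3* at 29.3 to 48.8 CPM. The surfactant genes *SFTPA1* and *SFTPA2* were the only members of that list with no count in any of the 4 libraries.

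**Figure D1:**
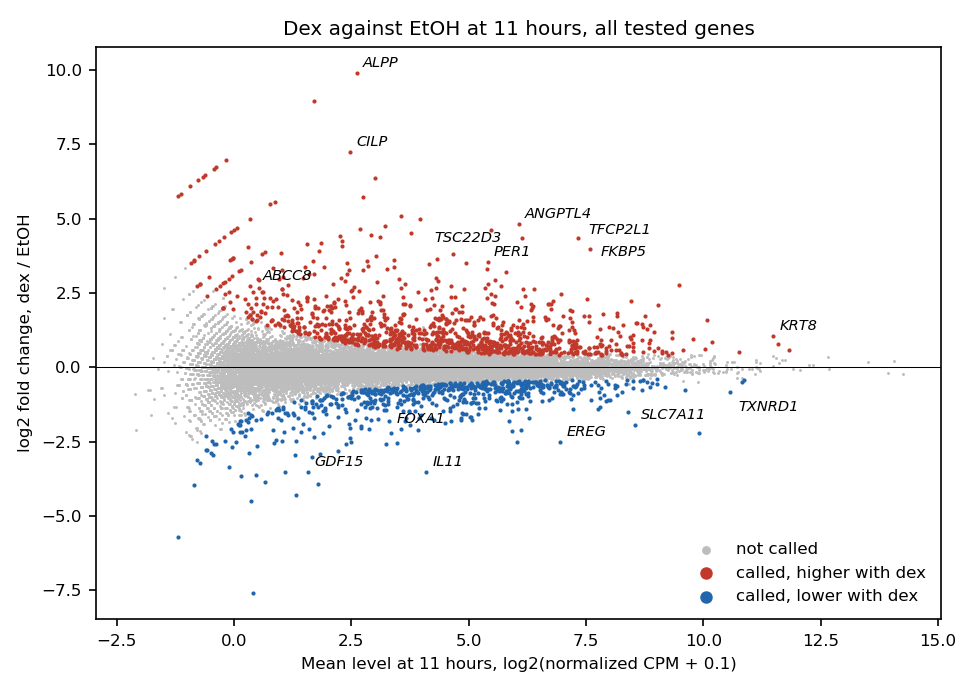
Log2 fold change of dex over EtOH (vertical axis) against the mean normalized CPM of the 4 libraries (horizontal axis, log2 with 0.1 added) for each of the 19897 features tested at 11 hours. Red and blue points are the 1072 features called higher and the 655 called lower with dex, which reach smaller fold changes at high levels than at low ones.

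Genes that are established targets of glucocorticoids were higher with dex after 11 hours. Of 28 such genes in the list, 27 were tested, 25 were called higher and 1 lower, with a median log2 fold change of 2.14 against 0.01 over all features tested. The list was assembled with earlier results of these data known and is not independent evidence of its direction. *FKBP5*, a co-chaperone of GR that limits the affinity of the receptor for its ligand, lies on chromosome 6 from 35573585 to 35728583 (GRCh38, minus strand). It had 367 and 356 CPM in the dex libraries and 22.0 and 24.2 in the EtOH libraries. The 2 dex values lay close together, far above the EtOH values, and the log2 fold change was 3.97 (standard error 0.15, edgeR quasi-likelihood test, BH-adjusted p = 6.86e-09). *TFCP2L1*, a transcription factor of ductal epithelia, had 308 and 305 CPM with dex against 15.5 and 14.8 with EtOH (log2 fold change 4.34, standard error 0.15). *TSC22D3*, which encodes the anti-inflammatory protein GILZ, had 136 and 132 CPM against 6.54 and 6.67, and its log2 fold change was also 4.34 (standard error 0.17). For each of these 3 genes the replicates of a treatment differed far less than the treatments did.

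Other members of this list act in metabolism, metal binding and feedback. *CIDEC*, a protein of lipid droplets, had 73.9 and 97.1 CPM with dex against 2.64 and 4.27 with EtOH (log2 fold change 4.61). *KLF9*, a transcription factor induced by steroid and thyroid hormones, had a mean of 36.9 CPM with dex and 2.95 with EtOH (3.63), and *ZFP36*, which destabilizes cytokine mRNAs, had means of 74.7 and 10.6 (2.81). The metallothionein *MT2A* had means of 210.2 and 38.3 CPM (2.45). All of these were called, and at the other end of the called members stood *CRISPLD2* with 0.95 and *GLUL*, the glutamine synthetase, with 0.81. *EDN1*, which encodes the vasoconstrictor endothelin 1, was called lower, with means of 33.8 CPM with dex and 60.6 with EtOH (log2 fold change -0.84). *TAT*, the hepatic tyrosine aminotransferase long used to measure glucocorticoid action in liver cells, had 6 and 6 counts with dex and 6 and 5 with EtOH and was not called. *ZBTB16* had too few counts for the test, with 3 and 5 counts in the dex libraries and 0 in both EtOH libraries. *KLF9*, *ZFP36*, *MT2A*, *CRISPLD2*, *GLUL*, *EDN1*, *TAT* and *ZBTB16* were named after their values were seen. Without EtOH replicate 1 or 2, 23 members were called higher, and without either dex library it was 25.

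*ABCC8* and *FOXA1* give the same comparison for a low and a falling gene. *ABCC8*, the sulfonylurea receptor subunit of an ATP-sensitive potassium channel, had 7.45 and 7.40 CPM with dex and 0.880 and 1.20 with EtOH. The dex libraries agreed closely and lay above both EtOH libraries, with a log2 fold change of 2.81 (standard error 0.33, edgeR quasi-likelihood test, BH-adjusted p = 9.06e-05). *FOXA1*, a pioneer transcription factor that opens chromatin in endodermal epithelia, had 6.13 and 5.33 CPM with dex and 14.2 and 12.7 with EtOH. Both dex values were below both EtOH values, and the log2 fold change was -1.23 (standard error 0.22, edgeR quasi-likelihood test, BH-adjusted p = 0.0027). In RNA of a whole culture, less of a transcript per cell and fewer cells that carry it cannot be told apart. *ABCC8* lies on chromosome 11 from 17392498 to 17476879 and *FOXA1* on chromosome 14 from 37589984 to 37596059, both on the minus strand.

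Protein-coding genes were ranked if called, without overlap of the treatments and with a mean of at least 2 CPM in the higher group. The 12 with the highest log2 fold changes among them were nearly silent with EtOH, with the exception of *ANGPTL4* and *CIDEC*. The placental and germ cell alkaline phosphatases *ALPP* and *ALPG* had 0 counts in both EtOH libraries. With dex, *ALPP* had 11.7 and 12.4 CPM and *ALPG* had 6.66 and 5.87, so against a floor of 3 counts per library *ALPP* was at least 34.2-fold higher and *ALPG* at least 17.8-fold higher. The 2 genes are near-identical neighbours on chromosome 2, and how reads that match both were placed is not given in the sources used here, so the split between them is uncertain. *CILP*, a secreted protein of cartilage matrix, had 1 count in the EtOH libraries together and 242 in the dex libraries, a ratio of 184 after scaling (exact 95% interval 32.7 to 7294, counting error only). *DNAJC15*, a mitochondrial co-chaperone, had 3 counts with EtOH and 351 with dex, a ratio of 88.9 (30.2 to 433). *CDH16*, a cadherin of kidney and thyroid epithelium, reached 55.9 (21.6 to 206) and *BEST2*, a bestrophin anion channel, 54.0 (9.38 to 2161). Behind these wide intervals stand 1 to 4 counts in the EtOH libraries.

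*STAC2*, *EDN3*, *CDKN1C* and *GPR1* had more counts with EtOH, though still few, such as 2 and 6 for *CDKN1C* and 3 and 8 for *EDN3*. The standard errors of these 4 log2 fold changes were 0.30 to 0.38. Those of the genes above ran from 0.40 (*CDH16*) to 0.80 (*ALPG*). *STAC2*, an adaptor of voltage-gated calcium channels, had 20.7 and 24.4 CPM with dex and 0.629 and 0.656 with EtOH, a log2 difference of 5.10 (standard error 0.30). *EDN3*, endothelin 3, had 18.2 and 17.1 CPM against 0.377 and 0.875 (4.76). *CDKN1C*, the cyclin-dependent kinase inhibitor p57, had 11.0 and 13.3 CPM against 0.251 and 0.656 (4.66). *GPR1*, a receptor for chemerin, had 15.9 and 12.5 CPM against 0.629 and 0.656 (4.44). In these 4 genes the dex libraries lay close to each other and far above the EtOH libraries. *ANGPTL4*, an inhibitor of lipoprotein lipase, was different: its dex libraries held 71.3 and 186 CPM, with 4.4 and 4.7 in the EtOH libraries. The 2 dex libraries lay further from each other than the EtOH libraries did, though both were above them. The log2 fold change was 4.82 (standard error 0.56, edgeR quasi-likelihood test, BH-adjusted p = 0.00574), and with no filter on low counts the gene was not called (adjusted p = 0.217, edgeR).

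**Figure D2:**
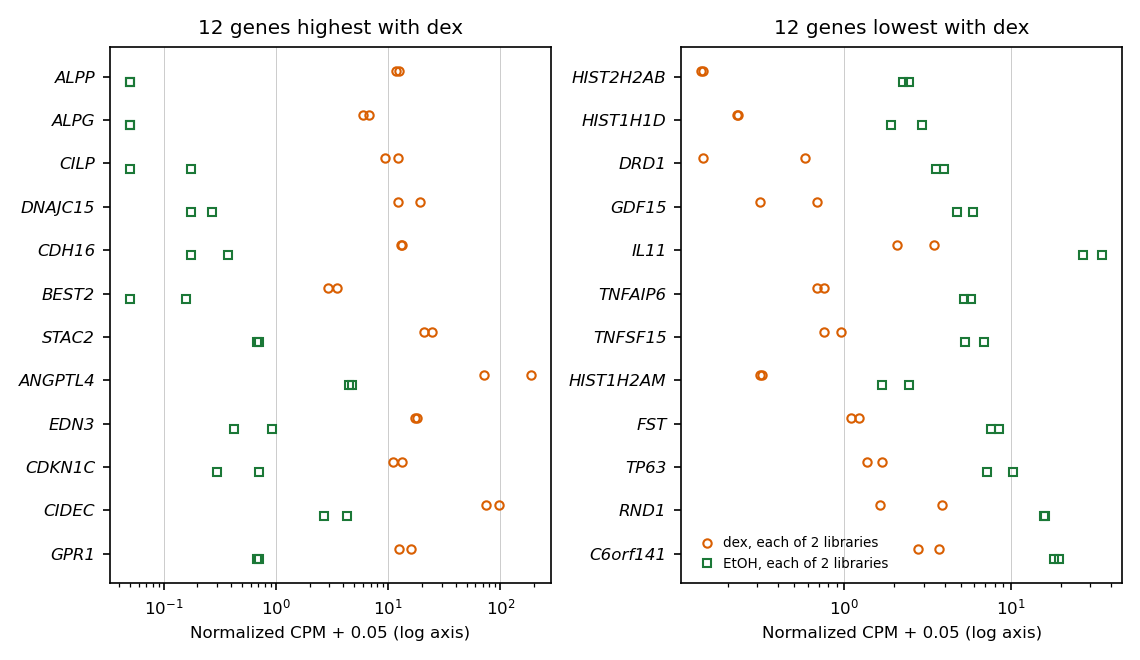
Normalized CPM (log axis, with 0.05 added so that 0 can be drawn) in each of the 2 dex libraries (circles) and 2 EtOH libraries (squares) at 11 hours. Shown are the 12 protein-coding genes highest (left) and lowest (right) with dex among those called with at least 2 CPM in the higher group. The 2 kinds of library do not overlap for any of these genes, as the rule that chose them requires, and the dex values of ANGPTL4, 71.3 and 186, stand furthest apart among the highest.

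The 12 lowest genes by the same rule included secreted signals, 3 histone genes and a transcription factor. *IL11*, a cytokine of the IL-6 family, had 2.02 and 3.43 CPM with dex and 35.3 and 27.1 with EtOH. The dex libraries lay well below the EtOH libraries, with a log2 fold change of -3.52 (standard error 0.26, edgeR quasi-likelihood test, BH-adjusted p = 1.82e-06). *GDF15*, a stress-induced growth factor, had 0.263 and 0.632 CPM against 5.91 and 4.70 (-3.53). *FST*, follistatin, which binds and blocks activins, had 1.05 and 1.17 CPM against 8.42 and 7.55 (-2.83). *TNFAIP6*, a hyaluronan-binding protein induced by TNF, had 0.701 and 0.632 CPM against 5.16 and 5.69 (-3.0). The TNF family ligand *TNFSF15* had 0.701 and 0.903 CPM against 5.28 and 6.89 (-2.91). All 5 of these encode secreted proteins, or a ligand that can be shed, and each was several-fold lower in both dex libraries than in either EtOH library. *TP63*, the p53 family factor of basal epithelium, had 1.31 and 1.62 CPM against 7.17 and 10.3 (-2.57). The dopamine receptor gene *DRD1* had 0.526 and 0.0903 CPM against 3.52 and 3.94 (-3.53), the small GTPase *RND1*, which loosens actin, 1.58 and 3.79 against 15.8 and 16.0 (-2.57), and *C6orf141* 3.68 and 2.71 against 18.2 and 19.5 (-2.56). The histone genes *HIST2H2AB*, *HIST1H1D* and *HIST1H2AM* had 2, 4 and 6 counts in the dex libraries together and 39, 40 and 35 in the EtOH libraries. Scaled, they were lower with dex by ratios of 25.7 (exact 95% interval 6.64 to 219), 13.2 (4.76 to 50.6) and 7.68 (3.19 to 22.3), from few counts in poly-A libraries, which hold little of the RNA of genes whose mRNA lacks a poly-A tail.

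Cytokines and chemokines are the classic genes that glucocorticoids lower, and the A549 cells had not been stimulated to make them. Of 31 list members in the table, 17 were tested. Of these, 8 were called lower and 1 higher, against 3.29% and 5.39% of all features, with a median log2 fold change of -0.38. *CXCL1*, a neutrophil chemoattractant, had 1.31 and 1.26 CPM with dex against 6.16 and 5.80 with EtOH (-2.20), and *CCL2*, a monocyte chemoattractant, had 5.70 and 2.98 against 16.2 and 14.2 (-1.80). *CXCL8*, *CXCL5*, *LIF* and *CSF1* were the other members called lower besides *IL11* and *TNFSF15*. Both dex libraries were below both EtOH libraries for each of these 8, as for 4455 of the 19897 features tested. *CSF3*, the granulocyte colony-stimulating factor, was the member called higher: it had 19 and 11 counts with dex and 0 in both EtOH libraries, at least 3.77-fold higher against the floor of 3 counts per library, and it was not called by DESeq2. These 5 genes, from *CXCL8* to *CSF1* and *CSF3*, were named after their values were seen. The number called lower fell to 5 without EtOH replicate 1 and to 6 without EtOH replicate 2.

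NF-kappaB subunits and inhibitors were measured in full, with 22 of 22 tested, 4 called higher and 1 lower. Over all features 5.39% and 3.29% were, and the list median was 0.05. The 4 genes called higher encode inhibitors and survival factors of the pathway, but other genes of these kinds were not called. Those were *NFKBIB*, *NFKBIE*, *NFKBIZ*, *CYLD*, *TNIP2* and *BIRC2* (0.31, -0.63, 0.04, 0.05, 0.28 and 0.22, named after their values were seen). *NFKBIA*, the inhibitor that holds NF-kappaB in the cytoplasm, had 241 and 225 CPM with dex against 60.2 and 65.0 with EtOH (log2 fold change 1.89, standard error 0.14). *BIRC3*, a ubiquitin ligase of TNF receptor complexes, had 199.96 and 167 CPM against 42.5 and 35.4 (2.24). *TNFAIP3*, the deubiquitinase A20, had 12.4 and 8.76 CPM against 3.52 and 3.50 (1.59). The dex libraries were above the EtOH libraries in all 3. *TNIP1*, a partner of A20, was the remaining gene called higher (0.70, named after its value was seen). *MAP3K14*, the kinase of the alternative NF-kappaB pathway, was lower, with 10.7 and 13.5 CPM against 23.0 and 18.9 (-0.79), a call that was lost without EtOH replicate 1 or 2 and when transcripts were tested one by one. None of the subunit genes *NFKB1*, *NFKB2*, *REL*, *RELA* and *RELB* was called. Without dex replicate 1, 8 members were called higher in place of 4, and without dex replicate 2, 4 were called lower in place of 1.

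Growth factors and their receptors changed in both directions: of 37 tested, 5 were called higher and 9 lower. Over all features 5.39% and 3.29% were, and the list median was 0.04. Of 5 ligands of the EGF receptor, *EREG*, *AREG* and *TGFA* were called lower (-2.51, -1.93 and -0.87), while *HBEGF* and *BTC* were not called (-0.64 and 0.01); all but *EREG* were named after their values were seen. *EREG*, epiregulin, had 39.8 and 33.8 CPM with dex and 216 and 203 with EtOH, which is -2.51 on the log2 scale (standard error 0.15, edgeR quasi-likelihood test, BH-adjusted p = 4.76e-07). *TGFB2*, a transforming growth factor, had 28.6 and 23.6 CPM against 114 and 111 (-2.11), and *IGFBP3*, which carries insulin-like growth factors, had 119.7 and 118 against 319.6 and 311 (-1.41). For each of these the dex libraries were far below the EtOH libraries. *CTGF*, a matricellular protein and target of YAP and TGF-beta, went the other way, with 135 and 111 CPM against 23.5 and 23.3 (2.40). Without dex replicate 1, 14 members of this list were called higher in place of 5, and without dex replicate 2 it was 8 and without EtOH replicate 2 it was 3.

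Of feedback inhibitors of MAP kinase signalling, 6 were called higher and 2 lower of 19 tested. Over all features 5.39% and 3.29% were, and the list median was 0.28. *DUSP1*, the phosphatase that inactivates p38 and JNK, had 753 and 574 CPM with dex against 224 and 180.1 with EtOH (log2 fold change 1.72). *ERRFI1*, an inhibitor of the EGF receptor kinase, had 522 and 355 CPM against 135 and 130.4 (1.72), and *RGS2*, which shortens G protein signals, had 75.6 and 71.6 against 16.2 and 16.5 (2.17). The first 2 of these had dex replicate 1 well above dex replicate 2, but both replicates lay above the EtOH libraries. *DUSP4*, another MAP kinase phosphatase, had 66.5 and 66.8 CPM against 144 and 141 (-1.10). Without dex replicate 2 the list had 9 members called higher, without EtOH replicate 2 it had 4, and without EtOH replicate 1 or 2 it had 1 called lower.

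AP-1 subunits and immediate early genes were called in both directions, 5 higher and 6 lower of 22 tested. Over all features 5.39% and 3.29% were, and the list median was -0.06. The Krüppel-like factor *KLF6* had 208 and 186 CPM with dex and 61.2 and 58.3 with EtOH (1.72), and *KLF4*, a factor of epithelial differentiation, had 12.4 and 12.9 against 4.15 and 5.03 (1.46). *MAFK*, a small MAF protein that pairs with NRF2, had 12.6 and 17.2 CPM against 41.5 and 44.2 (-1.52), and *IER3*, an early response gene and NF-kappaB target, had 4.73 and 7.04 against 20.0 and 18.5 (-1.71). Among AP-1 subunits proper, *JUNB*, *FOS* and *FOSL2* were called higher (1.04, 0.96 and 0.79) and *JUND* lower (-1.24), 4 genes named after their values were seen. The 2 treatments did not overlap for any of these 8 genes, as for 45.1% of all features tested.

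Of the 17 tested clock factors, 4 were called higher and 1 lower (median 0.07), against 5.39% and 3.29% of all features. The period gene *PER1*, a direct GR target that represses CLOCK and ARNTL, had 69.0 and 86.8 CPM with dex and 6.79 and 6.56 with EtOH (log2 fold change 3.54, standard error 0.19). *PER2* had 15.2 and 13.5 CPM against 5.66 and 7.77 (1.09) and *CRY2*, their partner in repression, 12 and 13.3 against 3.39 and 5.47 (1.5). *NR1D2*, the nuclear receptor REV-ERB beta, had 133 and 118 CPM against 80.0 and 69.6 (0.75). The 4 genes called higher are repressors of the loop, each with both dex libraries above both EtOH libraries. The member called lower was the activator *ARNTL* (-0.75, named after its value was seen). Of the 17 tested, 9 had positive and 8 negative log2 fold changes. That of *NR1D2* was -1.52 at 5 hours and 0.02 at 9 hours. Without dex replicate 1 the list had 3 called lower and without dex replicate 2 it had 2. The *ARNTL* call was lost with DESeq2 and without EtOH replicate 1 or 2, the *NR1D2* call without EtOH replicate 2 and the *PER2* call without EtOH replicate 1.

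Among transcription factors of lung and endoderm, 12 of 22 tested were called, 4 higher and 8 lower. Over all features 5.39% and 3.29% were, and the list median was -0.50. The higher members, *TFCP2L1*, *CEBPD*, *CEBPB* and *ID3*, include 2 C/EBP factors, which act in lung maturation and acute-phase responses. *CEBPB* had 96.7 and 108 CPM with dex against 39.0 and 43.2 with EtOH (1.32), and *CEBPD* had 22.6 and 15.3 against 4.78 and 6.02 (1.80). The lower members were *FOXA1*, *FOXA2*, *FOXA3*, *SOX9*, *TP63*, *HES1*, *ID2* and *ELF3*. All 3 FOXA genes thus were lower with dex: *FOXA2* had means of 24.1 CPM with dex and 37.9 with EtOH (-0.65), while *FOXA3* rested on 1 and 2 counts with dex and 18 and 7 with EtOH. *SOX9*, a progenitor factor of the distal lung, had means of 22.2 and 45.8 CPM (-1.04). The members beyond *TFCP2L1*, *CEBPB*, *TP63*, *CEBPD* and *FOXA1* were named after their values were seen. Without EtOH replicate 1 the number called lower was 3, without EtOH replicate 2 it was 5, and without dex replicate 1 the number called higher was 7.

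Genes of ion and water transport were called higher with dex more often than lower, 7 against 2 of 16 tested. Over all features 5.39% and 3.29% were, and the list median was 0.71. *SCNN1A*, the alpha subunit of the epithelial sodium channel, had 25.9 and 28.7 CPM with dex and 7.42 and 6.89 with EtOH (1.93). *AQP3*, a water and glycerol channel, had 8.94 and 15.2 CPM against 0.754 and 1.64 (3.29). Each was higher in both dex libraries than in both EtOH libraries. The gamma subunit *SCNN1G* had 30 counts with dex and 1 with EtOH, a scaled ratio of 22.8 (exact 95% interval 3.79 to 930.2). *ATP1B1*, the beta subunit of the sodium pump, was lower, with means of 122 CPM with dex and 191 with EtOH (-0.64). *SCNN1G* and *ATP1B1* were named after their values were seen. With at least 10 counts required in every library, *SCNN1G*, *AQP3* and *ABCC8* could not be tested and 4 members were called higher, and without EtOH replicate 1 or 2 no member was called lower.

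Junction, adhesion and keratin genes moved in both directions, with 10 called higher and 4 lower of 27 tested. Over all features 5.39% and 3.29% were, and the list median was 0.265. *PKP2*, a desmosomal plaque protein, had 52.7 and 49.7 CPM with dex and 7.17 and 9.30 with EtOH (2.63). The keratins *KRT8* and *KRT18*, which pair in simple epithelium, were called higher, and *KRT19* was not, with means of 13.6 CPM with dex and 14.1 with EtOH (-0.05, named after its value was seen). *KRT8* had 3487 and 4280.0 CPM against 1985 and 1759 (1.05), and *KRT18* had 3665 and 4158 against 2244 and 2277 (0.79). In both keratins dex replicate 2 was the higher of the dex libraries, and the EtOH libraries were below either. The annotated spans of *KRT8* and *KRT18* overlap on chromosome 12, and the use of strand in counting is not given in the sources used here. *SNAI2*, a repressor of epithelial genes, had 17.9 and 12.2 CPM against 2.39 and 3.28 (2.39), and *SNAI1* and *ZEB2*, which act likewise, were also called higher (0.78 and 1.04), while *CDH1*, *VIM* and *ZEB1* were not called. The 4 members called lower were *KRT80*, *CLDN2*, *CLDN1* and *OCLN*, of which 3 are tight junction proteins (-0.90, -0.79 and -0.67 for the latter 3). These last 9 genes, from *SNAI1* to *OCLN*, were named after their values were seen. Without EtOH replicate 1, 7 members were called higher and 2 lower.

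For matrix and proteolysis genes, 4 of 29 tested were called higher and 2 lower, against 5.39% and 3.29% of all features. Their median was about 0. *ITGB4*, the laminin receptor subunit of hemidesmosomes, had 99.2 and 155 CPM with dex against 32.6 and 34.2 with EtOH (1.93), and its ligand chain *LAMA3* had 102 and 121 against 50.8 and 56.6 (1.06). *THBS1*, thrombospondin 1, had 679 and 683 CPM against 324 and 279 (1.18). These 3 were higher in both dex libraries. *PLAT* and *PLAUR*, an activator of plasminogen and the receptor of another, were called lower (-1.75 and -0.97, named after their values were seen). Without dex replicate 1 the list had 12 members called higher and 6 lower, without dex replicate 2 it had 6 lower, and without EtOH replicate 1 none was lower.

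Targets of SRF and YAP, which respond to actin tension, had 8 of 19 tested called higher and none lower. Over all features 5.39% and 3.29% were, and the list median was 0.30. *ANKRD1*, a YAP target, had 81.0 and 69.2 CPM with dex and 14 and 13.2 with EtOH (2.47), and *VCL*, vinculin of focal adhesions, had 430.3 and 495 against 273 and 251 (0.82). *AMOTL2*, an inhibitor of YAP, had 81.5 and 95.9 CPM against 52.2 and 48.0 (0.82). For all 3 genes and for *CTGF* above, the 2 treatments did not overlap, as for 45.1% of all features tested. The count fell to 4 without EtOH replicate 1 and to 3 without EtOH replicate 2.

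In fuel metabolism, 6 of 28 tested genes were called higher and 4 lower, against 5.39% and 3.29% of all features. Their median was 0.12. Those called higher included *CIDEC*, described above, *PDK4* and *ACSL1*. *PDK4*, which shuts off pyruvate oxidation, had 144 and 115 CPM with dex against 29.2 and 29.8 with EtOH (2.14), and *ACSL1*, which activates fatty acids, had 169 and 118 against 22.1 and 24.1 (2.63). *INSIG1*, a brake on cholesterol synthesis, had 41.4 and 27.3 CPM against 76.4 and 68.1 (-1.07). *SCD* and *SREBF1*, an enzyme and a regulator of fat synthesis, were also called lower (-0.48 and -0.52, named after their values were seen). In *PDK4* and *ACSL1* dex replicate 1 was above replicate 2, and both were far above EtOH. Without EtOH replicate 1 or 2 the list had 4 members called higher and 1 lower, without dex replicate 1 it had 10 and 9, and without dex replicate 2 it had 11 and 6.

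Among genes of the amino acid and ER stress responses 2 of 24 were called higher and 1 lower, against 8.68% called over all features. The lower one was *SLC7A11*, the cystine importer, with 176 and 133 CPM with dex and 587 and 592 with EtOH, or -1.93 on the log2 scale (standard error 0.15, edgeR quasi-likelihood test, BH-adjusted p = 3.16e-06). *DDIT4*, an inhibitor of mTORC1 and a known GR target, had 143 and 177 CPM against 92.7 and 77.6 (0.91). *HERPUD1*, a factor of ER-associated degradation, was called higher at 0.47 with a BH-adjusted p of 0.0992 by edgeR, and the call was lost under 7 of 14 alternatives. There were 7 calls in each direction without dex replicate 1, 4 higher and 6 lower without dex replicate 2, and 1 in each without EtOH replicate 1 or 2.

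*SLC7A11* is also a target of NRF2, the factor that A549 cells carry in a constantly active state. The list of NRF2 targets, which does not hold *SLC7A11*, had 7 members called lower and none higher of 21 tested. Over all features 3.29% and 5.39% were, and the list median was -0.21. *HMOX1*, heme oxygenase, had 26.1 and 28.3 CPM with dex and 74.7 and 72.4 with EtOH (-1.44). *TXNRD1*, thioredoxin reductase, had 1178 and 1007 CPM against 2004 and 1885 (-0.83), and *UGDH*, which makes UDP-glucuronate, had 595 and 561 against 1001 and 951 (-0.76). *GCLM*, the regulatory subunit of glutathione synthesis, had 180.4 and 109 CPM against 303 and 294 (-1.04). In all 4 both dex libraries were below both EtOH libraries. Of other abundant members, *NQO1* had means of 1520.2 CPM with dex and 1575 with EtOH, and *AKR1C2* 1071 and 1077, with log2 differences of -0.05 and -0.01 (named after their values were seen). The count was 12 lower and 4 higher without dex replicate 1.

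Against 8.68% of all features, 2 of 24 interferon response genes and 4 of 20 p53 targets were called. Of the 24 interferon response genes tested, *STAT2* was called higher (27.9 and 30.2 CPM with dex, 19.2 and 20.2 with EtOH, 0.56) and *OAS1* lower (10.5 and 13.9 against 20.0 and 18.1, -0.64), both lost with DESeq2. For p53 targets 3 of 20 were called higher and 1 lower. *GADD45A*, a stress sensor, had 92.7 and 57.6 CPM with dex against 17.7 and 16.4 with EtOH (2.14). *CDKN1A*, the kinase inhibitor p21, had 161 and 208 CPM against 101 and 94.9 (0.91), and *TP53I3*, an oxidoreductase, had 82.3 and 82.8 against 46.0 and 46.1 (0.84). *PLK2*, a polo-like kinase, had 176 and 175 CPM against 513 and 490.0 (-1.51). The replicates of *PLK2* and *TP53I3* nearly coincided, while those of *GADD45A* with dex stood apart by 0.69 on the log2 scale. The p53 targets *MDM2*, *BAX* and *FAS* were not called. Without dex replicate 1, 7 of the p53 targets were called higher and 3 lower, and without dex replicate 2 also 3 were lower. The *STAT2* call was lost without EtOH replicate 1 or 2, as was that of *OAS1*.

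Of 42 S phase genes tested, 3 were called lower and none higher, against 3.29% and 5.39% of all features, and the median log2 fold change was -0.24, with 35 of 42 negative. *CDC6*, which loads the replicative helicase, had 88.8 and 91.1 CPM with dex and 139.6 and 142 with EtOH (-0.65, edgeR quasi-likelihood test, BH-adjusted p = 0.00755). *DTL*, which directs the destruction of licensing factors, had 61.7 and 59.8 CPM against 89.9 and 92.1 (-0.58). *USP1*, a deubiquitinase of DNA repair, was the remaining call (-0.42, adjusted p = 0.095 from edgeR), which was lost under 7 of 14 alternatives. The count of S phase genes called lower was 20 without dex replicate 1, 15 without dex replicate 2, 0 without EtOH replicate 1 and 1 without EtOH replicate 2. At 9 hours the same list had 31 members called lower and a median of -0.56. Of 53 genes of G2 and M phases tested, 2 were called lower and none higher, against 3.29% and 5.39% of all features. They were *HJURP*, the chaperone of the centromeric histone, and *CBX5*, heterochromatin protein 1 alpha (-0.65 and -0.47), at a list median of -0.16. Neither was called without EtOH replicate 1 or 2, and the list had 19 called lower and 4 higher without dex replicate 1 and 10 lower without dex replicate 2.

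G1 regulators had 3 called higher and 2 lower of 20 tested, against 5.39% and 3.29% of all features. Beside the inhibitors *CDKN1C* and *CDKN1A*, cyclin D1 (*CCND1*) was higher, with 289 and 299.9 CPM with dex against 193 and 185 with EtOH (0.64), and cyclin D3 (*CCND3*) was lower, with 36.8 and 51.5 against 80.1 and 81.6 (-0.87). *CDK6*, the kinase they activate, was lower (-0.51, named after its value was seen). The *CCND1* call was lost without EtOH replicate 1 or 2, where 1 member was called lower, and without either dex replicate 4 were called lower. Replication-dependent histone genes in the fixed list had 3 called lower of 10 tested, against 3.29% of all features. Their median was -0.74, from low levels throughout. Their summed level was between 29.1 and 29.7 CPM with dex and between 48.2 and 50.1 with EtOH. *HIST1H2AC* had 13.3 and 12.2 CPM with dex against 18.7 and 20.5 with EtOH (-0.62), and *HIST2H2AA3* 0.789 and 0.903 against 2.51 and 2.41 (-1.53), and both calls were lost with DESeq2 and without EtOH replicate 1 or 2. Near-identical histone genes share reads, so single members are uncertain. None of the 13 mitochondrially encoded genes was called by edgeR or DESeq2 as fitted above, but edgeR with the replicate number as a block called 3 higher, and 2 were called higher without dex replicate 1 and 1 without EtOH replicate 2. *MT-ND4*, a subunit of complex I, had 6476 and 7980.0 CPM with dex and 4115 and 7122 with EtOH, so that the 2 treatments overlapped.

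Markers of cells other than epithelium were low, and none was called by edgeR as fitted above or by DESeq2. The summed level of 9 fibroblast markers was between 14.8 and 21.6 CPM with dex and between 21.5 and 24.7 with EtOH, with *COL1A2* and *FAP* at 0. All 5 fibroblast markers tested had negative log2 fold changes (median -0.67). Of these, 3 were lower in both dex libraries than in both EtOH libraries, as were 4455 of the 19897 features tested. *PDGFRA*, a growth factor receptor, had 0.438 and 1.08 CPM with dex against 2.14 and 1.97 with EtOH (-1.42), and *THY1*, a surface glycoprotein, had 0.789 and 1.26 against 1.63 and 2.41 (-0.98). Without dex replicate 2, 2 of these markers were called lower, and 1 was with a replicate block, without a filter on low counts or in 1 fit over 24 libraries; their part in the other results was not tested. The 10 markers of blood and endothelial cells in the table summed to at most 4.33 CPM in any of the 4 libraries, with *CD3E*, *HBB*, *HBA1* and *VWF* at 0. The 10 alveolar type II markers summed to between 30.8 and 51.0 CPM with dex and between 30.0 and 33.7 with EtOH, nearly all of it from *ABCA3*, a lipid transporter, at 29.4 and 48.8 CPM with dex and 32.1 and 29.3 with EtOH. Of the A549 and epithelial markers, *KRT8*, *KRT18* and *KRT7* were called higher and *GDF15* and *TFPI2* lower of 12 tested, with 4 called lower without dex replicate 1 and 1 without EtOH replicate 1 or 2.

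**Figure D3:**
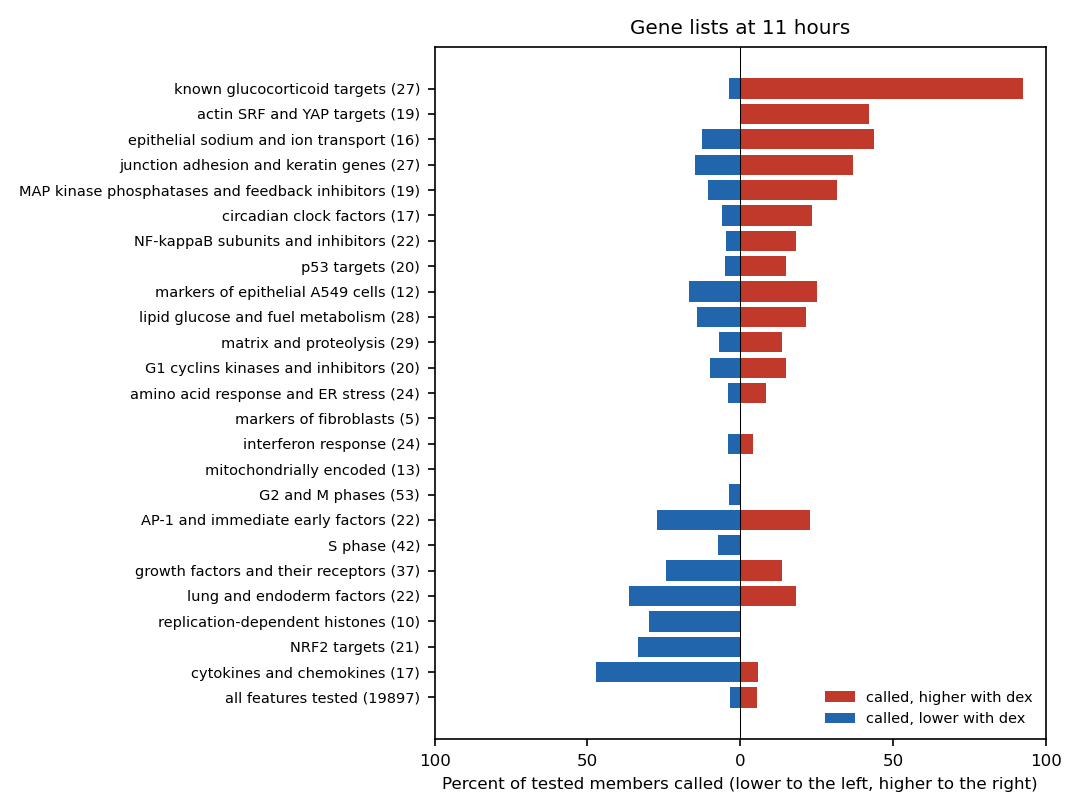
Percent of the tested members of each list that were called higher (right, red) or lower (left, blue) with dex at 11 hours, with the number tested in brackets and lists of fewer than 5 tested members left out. Against 5.39% higher and 3.29% lower over all features in the bottom bar, known glucocorticoid targets stood at 25 of 27 higher, and cytokines and chemokines at 8 of 17 lower.

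The 2 dex libraries at 11 hours stood further apart than any other pair of replicates in the series. Over 10313 genes with a mean of at least 10 CPM, the log2 difference between the 2 dex replicates had an SD of 0.341, against 0.183 for the EtOH pair at 11 hours and 0.180 and 0.280 for the dex and EtOH pairs at 9 hours. More than 2-fold apart were 78 genes in the dex pair, 69 of them higher in replicate 2 and 9 higher in replicate 1, and 8 genes in the EtOH pair. The 6 genes furthest apart were all higher in dex replicate 2. *UQCC2*, an assembly factor of respiratory complex III, had 7.27 and 28.2 CPM with dex and 12.2 and 12.8 with EtOH, so the 2 dex libraries lay on either side of the EtOH libraries. *NDUFS8*, a subunit of complex I, had 56.9 and 178 CPM against 71.2 and 70.0, *AP4M1*, an adaptor of vesicle sorting, 20.9 and 79.2 against 26.8 and 21.7, and the hair keratin *KRT83* 45.9 and 138 against 54.3 and 47.2. The kinase *CSNK1G2* and *TMEM203*, a membrane protein of calcium homeostasis, behaved alike, with 8.76 and 26.5 CPM against 11.4 and 10.3, and 75.2 and 211 against 103 and 83.4. None of the 6 was called. *AP4M1* and *MCM7*, on opposite strands of chromosome 7, overlap at their starts, and *KRT83* has close relatives whose reads it may share.

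The difference between the dex replicates moved with base composition. The 9019 genes with a mean of at least 10 CPM at 11 hours and a known transcript sequence were split into 5 equal bins by the share of G and C. The median log2 difference of dex replicate 1 over replicate 2 was 0.25 in the bin with the lowest share (29.9% to 40.3%). It was 0.16, 0.04 and -0.13 in the next ones, and -0.35 in the bin with the highest share (56.3% to 71.9%). For the EtOH pair the same medians ran from 0.02 to 0.04. Of the genes more than 2-fold higher in dex replicate 2, 55 were in the highest bin and none in the 2 lowest. The dex response itself also moved with this share, with a median log2 fold change of -0.09 in the lowest bin and 0.16 in the highest, where 187 genes were called higher and 40 lower, against 62 and 106 in the lowest bin. Removing this trend in each library, an alternative chosen after seeing the data that also removes any true link between dex response and base composition, gave 2256 called features, of which 1698 were among the 1727. The part of base composition in the calls of single genes was not tested. Known glucocorticoid targets had 25 called higher under this correction, S phase genes 8 called lower and NRF2 targets 7 called lower.

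**Figure D4:**
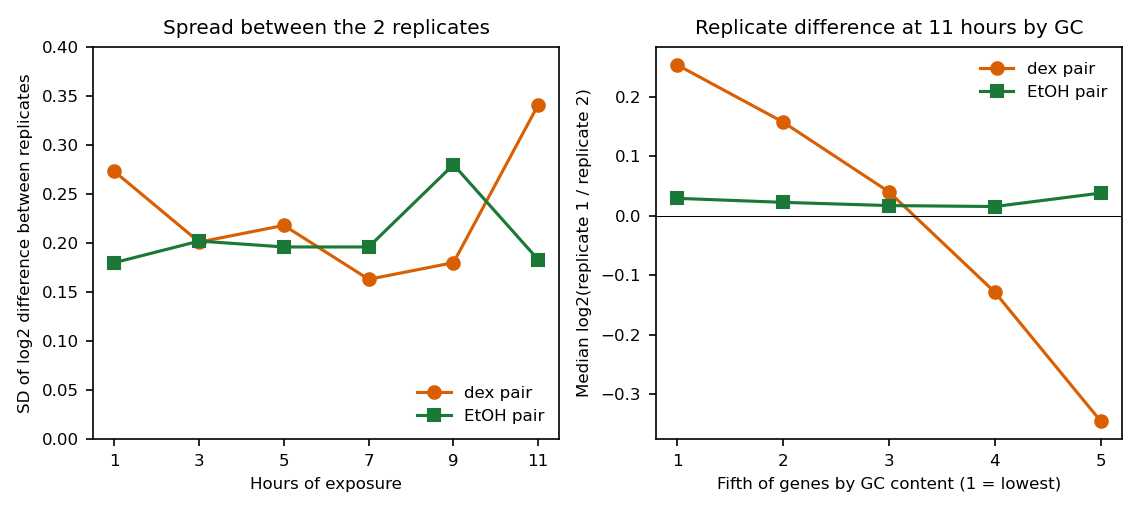
Left, SD over 10313 genes of the log2 difference between the 2 replicates of each treatment, by hours of exposure; the dex pair at 11 hours, at 0.341, is the highest of the 12 pairs. Right, median log2 ratio of replicate 1 to replicate 2 at 11 hours in 5 equal bins of 9019 genes by their share of G and C, which falls from 0.25 to -0.35 for the dex pair and stays near 0 for the EtOH pair.

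The nearest earlier time point, 9 hours, has its own dex and EtOH libraries, and 3598 features were called there (18.1%). Of the 1852 features called higher at 9 hours, 1618 were also positive at 11 hours and 861 (46.5%) were called higher again, which is 80.3% of those called higher at 11 hours; their median log2 fold change was 0.75 at 9 hours and 0.53 at 11 hours. Of the 1746 called lower at 9 hours, 1354 were also negative at 11 hours and 457 (26.2%) were called lower again, which is 69.8% of those called lower at 11 hours, and their median was -0.66 at 9 hours and -0.32 at 11 hours. Since these features were chosen on their 9 hour values, some shrinkage at another time is built into the choice. Taken one at a time against the EtOH libraries, the 2 dex libraries at 11 hours gave medians of 0.57 and 0.51 for the higher group and -0.39 and -0.26 for the lower group, so that dex replicate 1 was the further from EtOH in both.

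When the difference between the dex effects at 11 and 9 hours was itself tested, no feature passed (0% called), with edgeR's quasi-likelihood test and BH adjustment, while 1865 features had an unadjusted p under 0.05. DESeq2 called 31, and without dex replicate 1 at 11 hours edgeR called 1831. Of the 404 features called at 11 hours and not at 9 hours, 0 passed the test of the difference by edgeR, so none of them is shown to respond at 11 hours alone. The genes with the smallest unadjusted p in this test were of different kinds. *MCM7* and *MCM2*, subunits of the replicative helicase, had log2 fold changes of -0.97 and -1.24 at 9 hours and -0.12 and -0.25 at 11 hours, and *MND1*, a meiotic recombination factor, had -1.10 and 0.05. *SQSTM1*, the autophagy receptor p62, had -1.83 at 9 hours and -0.64 at 11 hours. *SRGN*, the proteoglycan serglycin, had 2.20 at 9 hours and 1.40 at 11 hours, *ELOC*, elongin C, had 1.05 and 0.27, and *EREG* had -1.54 and -2.51. The BH-adjusted p of each of these 7 genes in edgeR's test of the difference was 0.355 or 0.399, outside the threshold. *FKBP5*, *ABCC8* and *FOXA1* had differences of -0.17, 0.47 and -0.27 between the 2 times, with standard errors from the model of 0.18, 0.43 and 0.28, none of which passed.

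**Figure D5:**
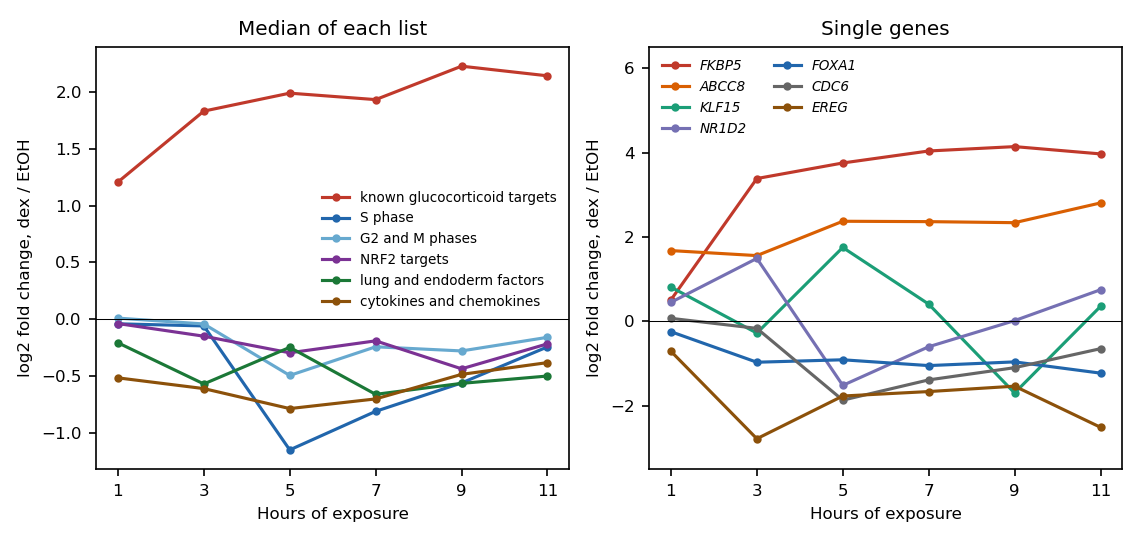
Log2 fold change of dex over EtOH by hours of exposure, each time against its own EtOH libraries: left, the median over the tested members of 6 lists, and right, 7 single genes. The median of the known glucocorticoid targets was 1.21 at 1 hour and 2.14 at 11 hours, that of S phase genes was lowest at 5 hours (-1.15) and stood at -0.24 at 11 hours, and FKBP5 stayed between 3.38 and 4.14 from 3 hours on.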

How the data were processed

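Poly-A RNA of A549 cells was sequenced as single-end reads of 50 bases. Per the study's methods, the authors aligned the reads to GENCODE transcripts with Bowtie, counted them with samtools idxstats (the submitters' processing notes name hg 19) and deposited raw counts per transcript for 24 libraries in 1 table; the placement of reads that match several transcripts and the use of strand are not given in the sources used here. Of 119207 transcripts, 110262 (94.1% of counts) were joined to GENCODE 29 by identifier without version and summed to 33127 genes, and the rest were kept as single features. Features were filtered with filterByExpr over the 12 groups, scaled by TMM and tested in edgeR 4.0.16 (R 4.3.3; estimateDisp and robust glmQLFit on the 4 libraries at 11 hours, or the 8 at 9 and 11 hours for the difference between times), and p-values were adjusted by Benjamini-Hochberg and called at 0.1 or less. DESeq2 1.42.0 was an alternative. Folds against 1 to 6 counts in the lower group carry exact binomial intervals of 95%, and folds against 0 use a floor of 3 counts per library. Both cover counting error only. Folds against more counts, also the low ones of *CDKN1C* and *DRD1*, carry no such interval. On simulated counts for this comparison (19897 features, 200 changed), edgeR called 77% of 2-fold and 100% of 4-fold changes, with 15.3% of its 209 calls false; DESeq2 called 61% and 93%, with 3.145% of 159 calls false.

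Genes were named by rule: the 3 given markers, the 12 highest and 12 lowest called protein-coding genes whose treatments do not overlap and whose higher group has at least 2 CPM, up to 4 called members of each list by smallest p, the 6 genes with the dex replicates furthest apart, and the 5 with the smallest p in each direction between 11 and 9 hours. The members and lists were chosen with earlier results of these data known. Library totals of 7813353 to 11592889 limit what can be seen of genes at a few counts. Same-numbered dex and EtOH libraries at 11 hours had deviations correlated by 0.0212, so the numbers were not taken as pairs. The same correlation was 0.237 at 9 hours, 0.412 at 1 hour and -0.264 at 3 hours, and a replicate block was an alternative. Promoter sequences are from RefSeq. Some named genes are not reported here.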

Additional observations from a re-analysis of the deposited data

Results flagged for a closer look

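At 11 hours *KLF15*, a Krüppel-like factor of fasting metabolism, had 16.3 and 17.4 CPM with dex and 12.3 and 14 with EtOH, while at 9 hours it had 13.8 and 24.1 with dex and 65.9 and 60.9 with EtOH. It stands out because both dex libraries lay above EtOH at 11 hours and below EtOH at 9 hours. At 11 hours it was not called (log2 fold change 0.35, edgeR quasi-likelihood test, Benjamini-Hochberg adjusted p = 0.405), whereas at 9 hours it was. A lack of overlap at 11 hours was seen for 45.1% of all features tested. Between the 2 times the EtOH values differed more than the dex values did. The difference between the dex effects at the 2 times was 2.06 on the log2 scale (standard error 0.29, edgeR quasi-likelihood test, Benjamini-Hochberg adjusted p = 0.113) and did not pass the threshold of 0.1. *ATP6V0B*, a subunit of the proton pump of lysosomes, had 34.1 and 31.0 CPM with dex against 47.8 and 44.2 with EtOH at 11 hours, and 51.0 and 51.1 against 31.1 and 36.9 at 9 hours, with a difference of -1.09 (adjusted p = 0.355 by the edgeR test). *STX8*, a syntaxin of endosomes, had 20.0 and 26.6 CPM against 44.3 and 32.6 at 11 hours, and 33.4 and 35.7 against 26.3 and 24.3 at 9 hours, with a difference of -1.17 (adjusted p = 0.399 by the edgeR test). Both genes were lower with dex at 11 hours and higher at 9 hours in all libraries, and neither difference passed.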

How the results depend on the processing

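The 1727 calls at 11 hours (1072 higher, 655 lower) became 1171 with DESeq2 (419 lower) and 2971 in 1 fit over 24 libraries (1722 higher, 1249 lower). Leaving out 1 library gave 859 to 5845 calls, 578 to 3285 of them higher and 278 to 2560 lower. No call changed sign under any alternative. The difference between 11 and 9 hours, with 0 calls, had 31 with DESeq2 (18 up, 13 down), 249 without a filter on low counts (181 up, 68 down), 106 in 1 fit over 24 libraries (54 up, 52 down), 1 when transcripts were tested one by one (1 up), 5 after a correction for the share of G and C that was chosen after seeing the data (4 up, 1 down), and 0 to 1831 without 1 library (0 to 1142 up, 0 to 689 down). With the replicate number as a block, 2185 features were called at 11 hours, including all 1727, and 70 for the difference between times (38 up, 32 down). What same-numbered libraries share is not stated in the labels. Their replicate differences in dex and in EtOH correlated by 0.0212 at 11 hours and by 0.237 at 9 hours. Of 97 named genes called, 78 were called in every alternative that could test them. Without dex replicate 2 at 11 hours the uncalled *UQCC2*, *NDUFS8* and *TMEM203* turned negative, at -0.78, -0.31 and -0.31 (adjusted p = 0.00432, 0.0547 and 0.0423 by edgeR), and without dex replicate 1 they stood at 1.17, 1.33 and 1.18. Where an arm kept 1 library, that library was assumed to vary like the other group. The causes of these shifts were not tested.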

Other observations

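Gene families outside the lists above were counted by their symbols, a choice made after the values were seen. Of 239 solute carriers tested, 18 were called higher with dex and 6 lower, together 10.04% against 8.68% of all features. *SLC45A4* had 92.4 and 122 CPM with dex and 20.5 and 26.5 with EtOH (log2 fold change 2.19), and *SLC40A1*, ferroportin, which exports iron, had 8.41 and 8.76 against 28.3 and 27.2 (-1.69). Of 24 integrins 4 were called higher and none lower (16.7% called), led by *ITGA5*, the alpha chain of the fibronectin receptor, with 155 and 185 CPM against 37.3 and 40.3 (2.13). The metallothioneins, which bind zinc and copper, had 4 of 5 called higher, with a median of 2.45. *MT1X* had 77.3 and 62.7 CPM against 11.6 and 10.6 (2.66) and *MT1G* 8.15 and 5.33 against 0.503 and 0.766 (3.37); these genes are so alike that reads may be shared between them.

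Large housekeeping families had few or no calls by edgeR: 1 of 83 ribosomal protein genes was called (*RPLP2*, 0.41), none of 47 NDUF genes of respiratory complex I and none of 37 proteasome genes. Of 614 lincRNA genes, 14 were called higher and 16 lower (4.89% called). *LINC01833* had 10.3 and 10.2 CPM with dex against 2.39 and 3.06 with EtOH (1.90), and *MIR4435-2HG* had 9.81 and 11.3 against 18.9 and 19.8 (-0.87). Of 1138 antisense genes, 41 were called higher and 19 lower (5.27% called), where the use of strand in counting is not given in the sources used here. *LUCAT1* had 2.72 and 1.81 CPM with dex against 7.17 and 9.85 with EtOH (-1.91).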
